A study of Cavia porcellus with 18 samples.

Results

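Boundary peaks were H3K4me1 peaks of guinea pig hippocampus that held, within 1 peak, at least 1 CG site with little DNA methylation and at least 1 with nearly full methylation. A low site had a methylation level of at most 20%, and a high site one of at least 80%, in both bisulfite assays of the study. The deposited list held 327682 H3K4me1 peaks, of which 45331 held at least 1 CG site measured in both assays (a shared site). The rule needs 2 shared sites, and 5322 of the 27723 peaks with at least 2 of them met it, which is 19.2%. Boundary peaks were chosen by their methylation levels in both assays, so the levels and numbers of low and high sites are given below as a description.

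Hippocampi came from 3 wild type male guinea pigs (Cavia porcellus), aged 12 weeks, and the labels name no treatment. DNA precipitated with an antibody against H3K4me1 was bisulfite-sequenced (ChIP-bisulfite, 3 libraries), and reduced representation bisulfite sequencing (RRBS), which reads DNA near restriction sites regardless of chromatin, had 3 libraries read at 50 bases and 3 at 100 bases. H3K4me1 ChIP-seq and ChIP-seq of RNA polymerase II phosphorylated on serine 5 (Pol II PS5) had 3 libraries each, and 3 RRBS libraries without bisulfite were not analysed here. Each assay was deposited as 1 value for the 3 animals together, so no spread between animals could be computed and no difference below is tested. The 95% intervals given below are exact binomial ones over peaks or sites. They cover counting error only, since peaks share animals and libraries and neighbouring sites share reads. Genes are given by the IDs of the files, which pair them with no name, so the tissue label was not checked against marker genes.

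Monomethylation of lysine 4 of histone H3 (H3K4me1) marks enhancers and the flanks of promoters. In mammals most CG sites are methylated, while CG-rich promoters and active enhancers are usually depleted of methylation, so the edge of such a region is a place where the level can change over a short stretch of DNA. Pol II PS5 is the form of the polymerase found at and shortly after initiation. Hippocampus holds neurons and glia, and a level is a share of reads over all of them: a site methylated in some cell types and a site methylated on some copies in every cell cannot be told apart.

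Boundary peaks held 57632 of the 167387 shared sites (34.4%). Low sites were 15559 of these (27.0%), with a mean level of 1.14% in ChIP-bisulfite and 3.91% in RRBS. High sites numbered 12871 (22.3%) and averaged 98.0% in ChIP-bisulfite and 94.9% in RRBS. The other 29202 (50.7%), called remaining sites below, were neither low nor high in both assays. RRBS depth was alike in the 3 classes, with a median of 16 reads at low, 17 at remaining and 17 at high sites. With 16 reads a level of 0% has an upper bound of 20.6%, and with 17 reads a level of 100% has a lower bound of 80.5% (95%, Clopper-Pearson). A site with the median depth is therefore placed on its side of the scale, but not to within a few percent. The number of ChIP-bisulfite reads per site was not used here, so no such bound is given for that assay.

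A boundary peak typically held few sites of each class. The median was 2 low sites (range 1 to 109), 2 high sites (1 to 117) and 8 shared sites in all (2 to 424). Exactly 1 low and 1 high site were found in 1137 boundary peaks (21.4%), at least 2 of each in 1653 (31.1%) and at least 3 of each in 680 (12.8%). Low sites outnumbered high sites in 2053 boundary peaks, high sites outnumbered low sites in 1746, and 1523 held equal numbers. The nearest low and high site stood at 0% and 100% in both assays in 1282 boundary peaks (24.1%, interval 22.9 to 25.3%).

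The boundaries with the best site support were the 188 boundary peaks with at least 3 low sites on one side and at least 3 high sites on the other. In the 10 of these with the shortest stretch between the sides, 101 to 304 bases separated the last low from the first high site. The peak on scaffold_28 from 26700539 to 26703593 was the plainest case. Its 6 low sites, at 26701417 to 26701456, had 0% in ChIP-bisulfite and 0 to 6% in RRBS, with 11 to 16 reads. Its 7 high sites began 304 bases further on, at 26701760, and had 100% in ChIP-bisulfite and 93 to 100% in RRBS, with 13 to 17 reads. No shared site lay in between, so the level changed somewhere within those 304 bases. This peak overlapped no Pol II PS5 peak, and its nearest listed start site was that of ENSCPOG00000001858, 6928 bases from the nearest low or high site.

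On scaffold_24, from 2573703 to 2579698, 5 low sites with 0% in ChIP-bisulfite and 0 to 7% in RRBS ended at 2577772. The 3 high sites, at 98 to 100% in ChIP-bisulfite and 100% in RRBS, began 118 bases later at 2577890. This change lay 602 to 720 bases downstream of the start site of ENSCPOG00000020628, with the low site on the side of the gene start. Depth was 11 to 14 reads at the low and 10 to 14 reads at the high sites. The same peak also held 2 sites that differed between the assays, with 0% in ChIP-bisulfite and 54% and 75% in RRBS.

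The peak on scaffold_17 from 21427108 to 21432040 held no remaining site. Its 3 high sites had 95 to 100% in ChIP-bisulfite and 100% in RRBS, and its 4 low sites 0% in ChIP-bisulfite and 0 to 7% in RRBS. A stretch of 245 bases, from 21430006 to 21430251, separated them, and the nearest listed start site, that of ENSCPOG00000010321, was 36387 bases away. Sharp changes were thus found both beside start sites and far from them. Of the 10 peaks, 6 held a listed start site and 4 did not.

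The shortest of the 10 stretches, 101 bases, was in a peak of 21277 bases on scaffold_6 starting at 27089877. Its low sites at 27090853 and 27090855 had 0% in both assays with 10 reads each, and the high site at 27090956 had 92% in ChIP-bisulfite and 100% in RRBS with 10 reads. A Pol II PS5 peak from 27090351 to 27090573 held the start site of ENSCPOG00000014858 at 27090402 and ended 70 bases from the nearest low and 384 bases from the nearest high site. The low sites of this peak lay on the side of the start site. They were interspersed with 4 remaining sites at 0 to 57% in ChIP-bisulfite and 5 to 45% in RRBS, so the low side was not uniformly unmethylated.

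**Figure D1:**
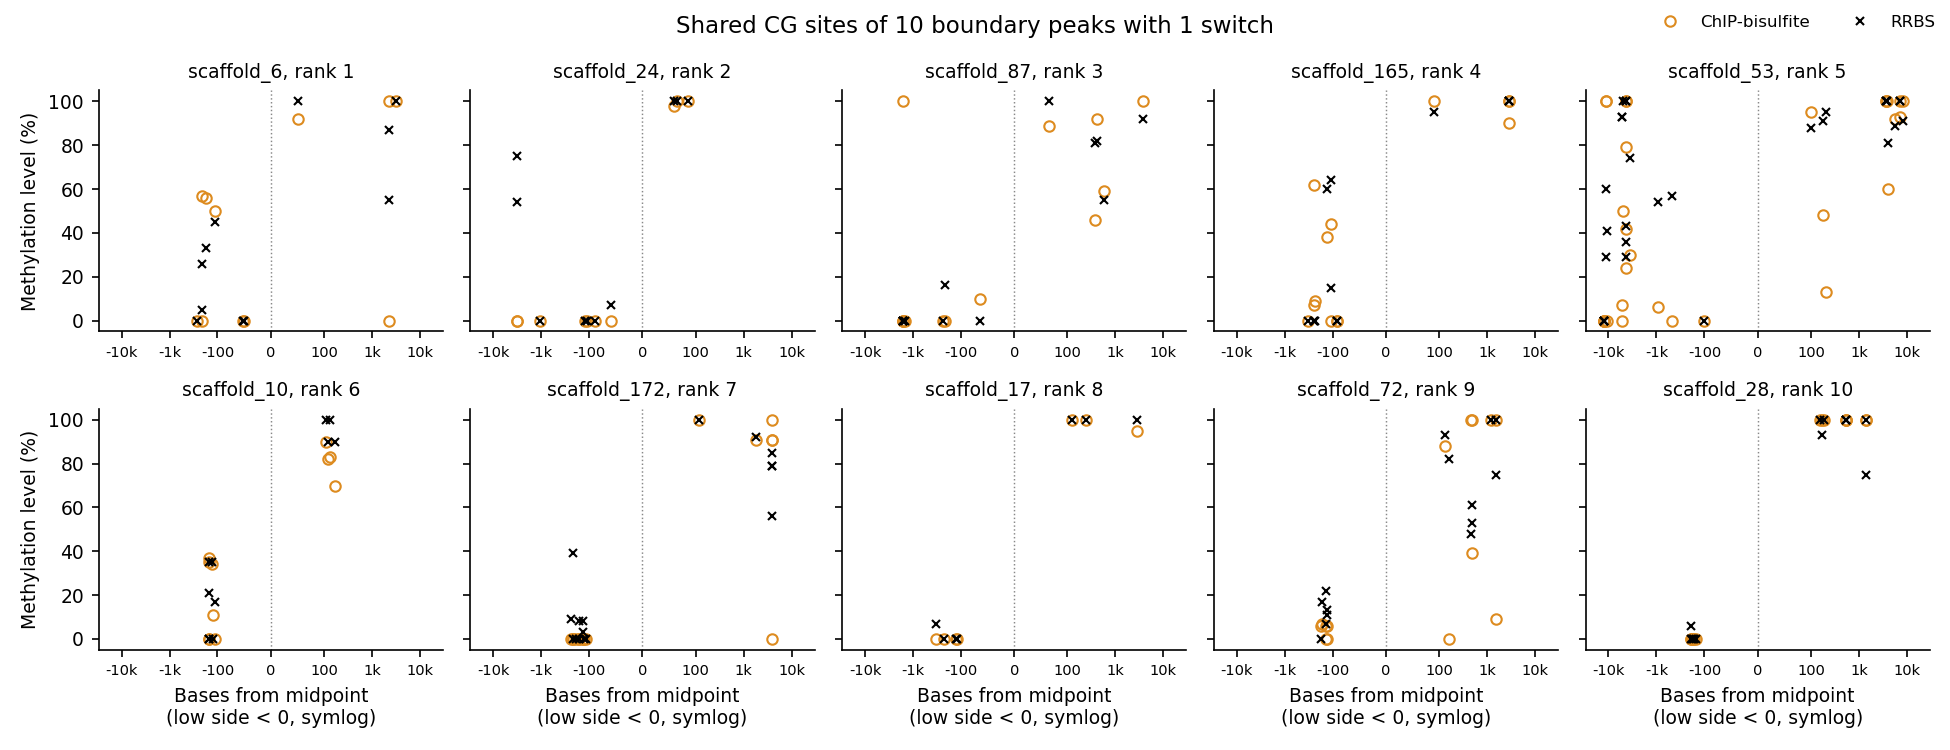
Methylation level in percent (y axis) of each shared CG site against its distance in bases from the midpoint between the nearest low and high site (x axis, linear within 100 bases and log beyond; low side negative) in the 10 boundary peaks with at least 3 sites of each class, 1 switch and the shortest distance. Circles are ChIP-bisulfite and crosses RRBS, each 1 pooled value; levels sit near 0% left of the midpoint and near 100% right of it, apart from remaining sites at all levels on both sides.

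Across all 5322 boundary peaks, the nearest low and high site were a median of 1049 bases apart (interval 1008 to 1094). The middle of the distribution ran from 483 to 2203 bases (25th to 75th percentile), and the longest distance was 49074 bases, in a peak on scaffold_65 starting at 1618021. A distance of at most 100 bases was found in 340 boundary peaks (6.39%, interval 5.75 to 7.08%), at most 500 bases in 26.0% and at most 1000 bases in 48.5%. These distances are upper limits on where the level changes, because only some CG sites were read. The median was 271 bases where ChIP-bisulfite alone defined low and high sites, and 1702 bases where each such site needed at least 20 RRBS reads. No shared site lay between the nearest low and high site in 2596 boundary peaks (48.8%), and no RRBS position at all in 506 (9.51%). In the 5 boundary peaks with the longest distances, which were 22068 to 49074 bases, 2 to 9 remaining sites lay in between.

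Neighbouring low or high sites were almost always alike at short range. Among 23108 pairs of neighbours in boundary peaks 7761 (33.6%) differed in class. Of pairs 1 base apart 1.02% differed (interval 0.546 to 1.74%, 1271 pairs), and of pairs 2 to 10 bases apart 1.52%. The share was 4.04% from there up to 50 bases, 12.4% from 50 to 100, 23.3% from 100 to 250 and 46.7% from 250 to 500 bases (upper limits included). Above 500 bases it levelled off, at 58.9% up to 1000 bases, 64.5% from 1000 to 2000 and 57.1% beyond 5000. Over all peaks, boundary or not, the share also grew with distance, from 0.420% at 1 base to 5.34% at 50 to 100, 27.4% at 250 to 500 and 43.2% beyond 5000 bases. That the shares are higher in boundary peaks follows from how these were chosen.

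**Figure D2:**
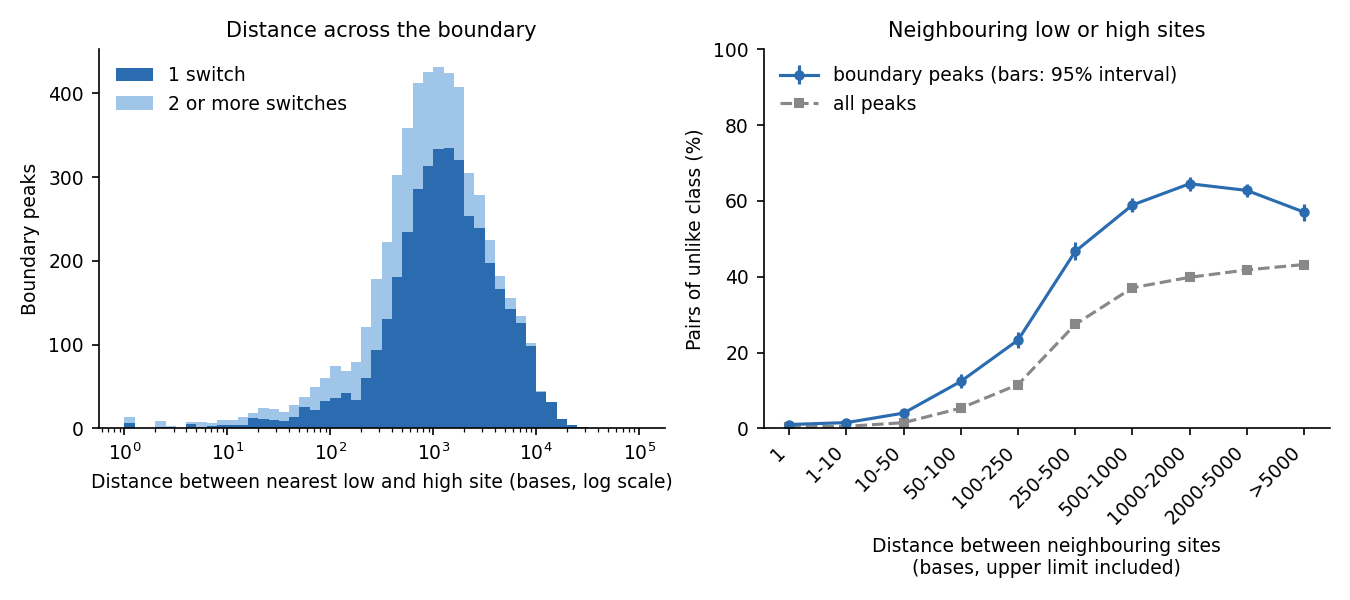
Left, number of boundary peaks (y axis) by distance in bases between the nearest low and high site (x axis, log scale), stacked by 1 switch or 2 or more switches; the 25th to 75th percentile runs from 483 to 2203 bases around the median of 1049. Right, percent of neighbouring low or high sites of unlike class (y axis) by their distance (x axis, bins), for boundary peaks (bars, 95% interval) and for all peaks; the share is 1.02% at 1 base and 64.5% at 1000 to 2000 bases in boundary peaks.

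In 13 boundary peaks (0.244%) the low and the high site were 1 base apart. A CG reads the same on both strands, so positions 1 base apart can be the C of each strand of 1 CG, and the files do not give the strand. On scaffold_7, at 51388072 and 51388073, the low site had 0% in both assays with 13 reads and the high site 92% in ChIP-bisulfite and 100% in RRBS with 10 reads. On scaffold_3, at 17135388 and 17135387, the low site had 0% in both assays with 15 reads and the high site 100% in ChIP-bisulfite and 88% in RRBS with 16 reads. In the 13 peaks the low sites had 10 to 33 reads and the high sites 10 to 23. Such pairs were rare: they were 13 of the 1271 pairs of neighbours at that distance.

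Class changes were counted in each boundary peak. Read along the scaffold, low and high sites switched class 1 time in 3883 boundary peaks (73.0%, interval 71.7 to 74.2%), 2 times in 931 (17.5%), 3 times in 293, 4 times in 104, 5 times in 46 and 6 times or more in 65. A boundary peak with 1 low and 1 high site can switch only once, and 1137 were of this kind. With at least 2 sites of each class the share with 1 switch was 44.95%. With 2 switches, 1 class is enclosed by the other. Low sites lay between high sites in 636 of these 931 peaks (68.3%, interval 65.2 to 71.3%), and high sites between low sites in 295 (31.7%). Of the 2 arrangements, peaks with enclosed high sites held a gene start at a higher rate (195 of 295 against 268 of 636). A listed start site lay inside 66.1% of the peaks with high between low (interval 60.4 to 71.5%), against 42.1% of those with low between high (38.3 to 46.1%) and 43.4% of those with 1 switch. Pol II PS5 peaks overlapped 53.2% (47.4 to 59.0%), against 41.2% (37.3 to 45.1%) and 39.2%. With 3 or more switches a start site lay inside 64.2% and Pol II PS5 overlapped 61.2%, at a median of 10 low and high sites and 26089 bases. The median number of low and high sites was 6 with high between low and 5 with low between high. Widths were close, at a median of 12128 bases with high between low and 11222 bases with low between high, and 7248 bases with 1 switch.

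The boundary peaks with the most switches were long H3K4me1 stretches. The peak on scaffold_2 from 69731364 to 69931905 switched 22 times over 215 shared sites, with 31 low and 55 high sites. It overlapped 5 Pol II PS5 peaks and held the start site of ENSCPOG00000010091. The widest boundary peak, 220169 bases on scaffold_53 from 1214148, switched 15 times over 177 shared sites and held no listed start site. The other 3 of the 5 peaks with most switches, on scaffold_15, scaffold_19 and scaffold_178, were 26051 to 112831 bases wide with 12 or 13 switches. Their low sites averaged 0.615 to 0.778% in ChIP-bisulfite and 3.27 to 5.94% in RRBS, and their high sites 96.2 to 98.7% in ChIP-bisulfite and 92.5 to 96.1% in RRBS.

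The mean level of the remaining sites went with the class of the low or high site nearest to them. Within 10 bases of it, remaining sites had a mean of 25.3% in ChIP-bisulfite where a low site was nearest (1915 sites), and 57.8% where a high site was nearest (1863 sites). In RRBS these means were 34.1% and 70.9%. Single sites varied widely around them, with standard deviations across sites of 32.8 and 37.3 points in ChIP-bisulfite and 22.2 and 21.6 points in RRBS. At 50 to 200 bases the means were 34.6% near low and 49.2% near high sites in ChIP-bisulfite, and 46.6% and 62.6% in RRBS. At 500 to 1000 bases little of the difference was left in RRBS, at 55.9% near low and 59.0% near high sites, and in ChIP-bisulfite the means stood the other way round, at 43.5% and 41.4%. At 200 to 500 bases the means were 38.4% near low and 43.2% near high sites in ChIP-bisulfite, and 53.15% and 60.23% in RRBS. The mean was thus lower near low than near high sites at up to 500 bases in both assays, by less the farther the site. The rule had removed the sites at either end of the scale, so these means describe what it left.

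Within single boundary peaks the same order was seen. In the 2634 boundary peaks with remaining sites nearest to each class, the ChIP-bisulfite mean differed by a median of −11.4 points between sites near low and sites near high sites (interval −13.4 to −9.65), and it was lower near low sites in 60.9% of them. In RRBS the difference was −15.1 points (interval −16.6 to −14.0), and the mean was lower near low sites in 1934 of them (73.4%). Most remaining sites were intermediate in RRBS only, with 15930 of 29202 (54.6%). A further 17.7% were intermediate in both assays, 15.6% in ChIP-bisulfite only, 9.21% were low in ChIP-bisulfite and high in RRBS, and 2.91% were high in ChIP-bisulfite and low in RRBS.

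The authors' deposited table of differentially methylated sites holds sites that were at most 30% in either assay and at least 70% in its counterpart. Of the remaining sites of boundary peaks, 15.2% were in it as lower in ChIP-bisulfite and 5.60% as higher, against 10.2% and 2.93% of all shared sites. Low and high sites cannot enter that table by construction, so the remaining sites of other peaks are the closer comparison. In peaks with at least 2 low and no high site (all-low peaks) 10.5% of the remaining sites were listed as lower and 7.53% as higher. In peaks with at least 2 high and no low site (all-high peaks) the shares were 22.3% and 4.49%. The boundary peaks lay between these 2 kinds in both directions.

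**Figure D3:**
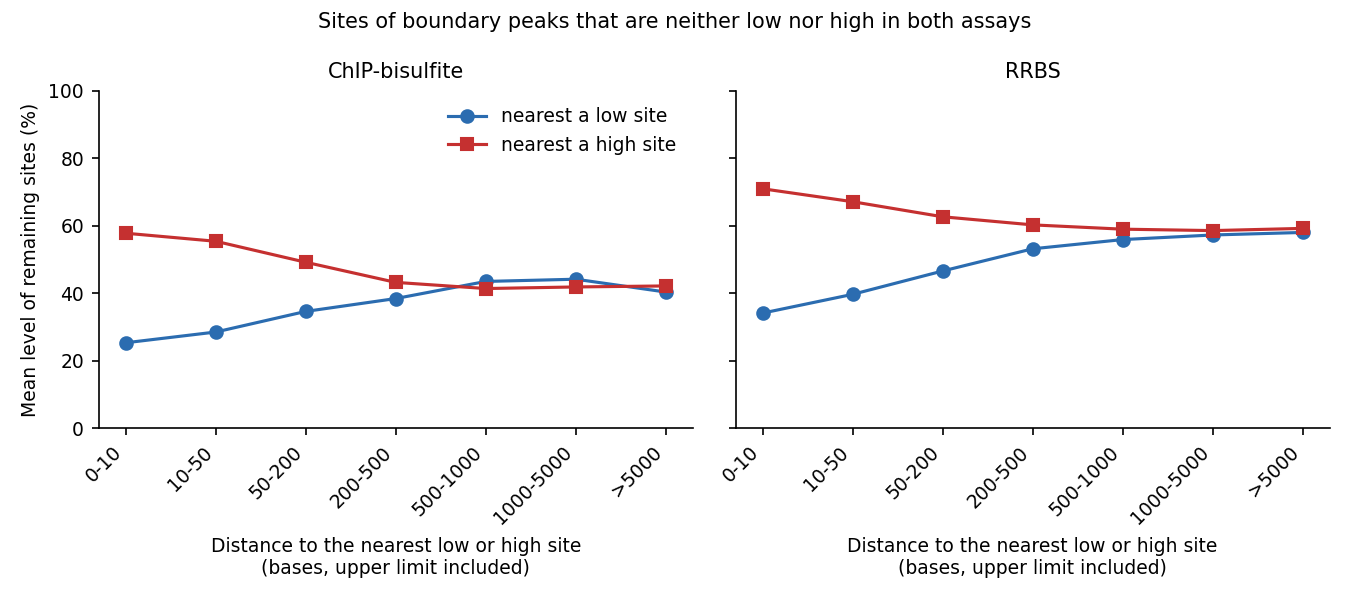
Mean methylation level in percent (y axis) of the remaining sites of boundary peaks, by distance in bases to the nearest low or high site (x axis, bins) and by the class of that site, for ChIP-bisulfite (left) and RRBS (right). Points are means over sites; the gap between near low and near high is widest within 10 bases (25.3% and 57.8% in ChIP-bisulfite, 34.1% and 70.9% in RRBS) and nearly closed at 500 to 1000 bases.

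Position relative to gene starts was not used by the rule. Start sites were those listed with the shared sites, each boundary peak being read against the one nearest to any of its low or high sites. The low site was nearer than the high site in 55.7% of all boundary peaks (interval 54.4 to 57.1%). The share depended on distance to the gene start. Where the nearest low or high site was within 1000 bases of it, the low site was nearer in 1314 of 1745 boundary peaks (75.3%, interval 73.2 to 77.3%). Farther away the low site was nearer in 1653 of 3577 (46.2%, interval 44.6 to 47.9%). It was 53.0% at 1000 to 2500 bases, 44.2% at 2500 to 5000 and 44.4% beyond 50000 bases. In the boundary peaks with equal numbers of low and high sites, neither class has more sites, but the spacing of the sites was not matched. There the shares were 74.7% of 371 within 1000 bases and 49.3% of 1152 beyond (interval 46.4 to 52.2%).

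Beside gene starts the change lay more often downstream, on the side of the gene body, than upstream. Of the 1745 boundary peaks within 1000 bases of a start site, 787 (45.1%) had the nearest low and high site both downstream of it, 505 (28.9%) both upstream and 453 (26.0%) one on each side. Downstream, the low site of this pair was the nearer one in 81.6% (interval 78.7 to 84.2%), at a median of 753 bases for the low and 2235 bases for the high site. Upstream it was nearer in 59.0% (54.6 to 63.3%), at medians of −1228 bases for the low and −1705 bases for the high site. Of the 1398 boundary peaks with a low site within 1000 bases of the start, 846 (60.5%) had high sites downstream only, 362 (25.9%) upstream only and 190 (13.6%) on both sides.

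The share of low sites among low and high sites had its steepest change between the bins 500 to 1000 and 1000 to 2500 bases downstream. In boundary peaks it was 87.2% in the 250 bases before the start site, 88.9% at 250 to 500 bases after it, 77.1% at 500 to 1000 and 41.1% at 1000 to 2500 bases. On the upstream side it was 77.8% at 500 to 1000 bases and 61.8% at 1000 to 2500 bases. In all other peaks it was 85.5% at 500 to 1000 bases downstream, 57.6% at 1000 to 2500 bases downstream and 72.8% at 1000 to 2500 bases upstream. The asymmetry around the start site was therefore present in both sets of peaks. Close to the start site boundary peaks and other peaks were nearly alike, at 81.1% and 84.5% in the first 250 bases downstream. At 5000 to 10000 bases downstream the shares were 49.9% and 37.1%. Sites of boundary peaks were measured from the start site chosen for their peak, sites of other peaks each from its own nearest. A site of a boundary peak far from the chosen start site can lie near another, so the far bins are not a like comparison.

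**Figure D4:**
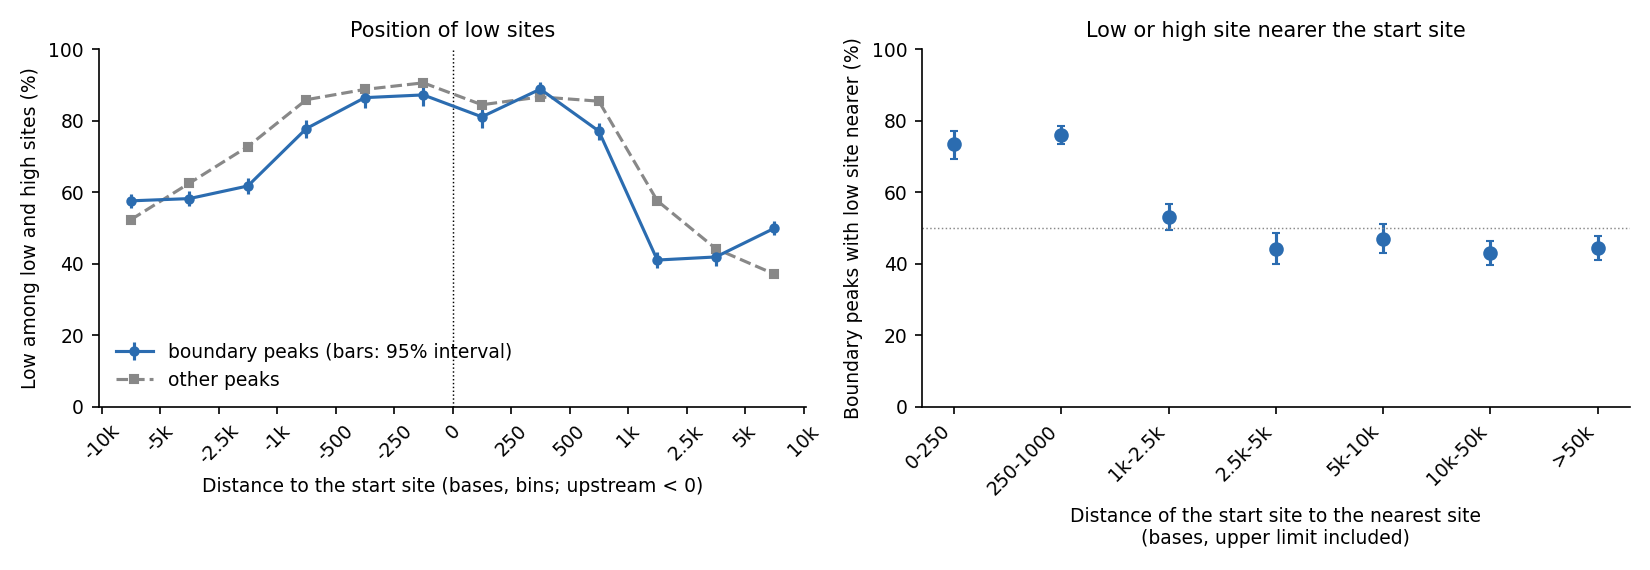
Left, percent of low among low and high sites (y axis) by distance from a listed start site in bases (x axis, bins, upstream negative). Sites of boundary peaks (bars, 95% interval) are measured from the start site chosen for their peak, those of all other peaks each from its own nearest. Both are over 80% in the 500 bases on either side and reach 41.1% and 57.6% at 1000 to 2500 bases downstream. Right, percent of boundary peaks whose low site is nearer the start site than the high site (y axis) by distance of the nearest site (x axis), with 95% intervals; the share is over 70% up to 1000 bases and near 50% or under it beyond.

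A listed start site lay inside many of the peaks that held low sites, and less often inside all-high peaks. It was inside 46.5% of boundary peaks (interval 45.1 to 47.8%), 48.8% of all-low peaks and 17.5% of all-high peaks. Matched on the total number of low and high sites, the share in all-low peaks was 52.4%, and matched on the span between the outermost of these sites 65.9%, so boundary peaks then held a start site less often (differences of −5.90 and −19.45 points). Against all-high peaks the differences were 22.3 and 20.6 points. The transcript score, a Pol II PS5 value that the authors' table gives per transcript with 0 for none, was above 0 for the nearest transcript in 55.7% of boundary peaks, 46.0% of all-low and 61.4% of all-high peaks. Within 1000 bases of the start site the order was another: 53.0% of boundary peaks, 51.2% of all-low and 34.4% of all-high peaks. Boundary peaks were spread over 4405 nearest genes and over 213 of the 302 scaffolds with shared sites. The 19244 genes listed with shared sites are not a like total, since a site can be listed with genes other than its nearest. Of the 4405 genes, 658 were nearest to at least 2 boundary peaks and 19 to at least 5, the most being 12 at ENSCPOG00000014759.

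Boundary peaks were wide. Their median width was 8552.5 bases (interval 8305 to 8814), against 4899.5 bases in all-low and 5302 bases in all-high peaks and 1785 bases over the whole list. Of the boundary peaks, 2318 (43.6%) were at least 10000 bases wide, against 2.44% of the list. A wide peak has more sites and so more chances to hold both classes. Matched on the total number of low and high sites, boundary peaks were still 3533.5 bases wider than all-low and 940.5 bases wider than all-high peaks (differences of medians, weighted to the boundary peaks). The 1523 boundary peaks with as many low as high sites were 1955 bases wider than all-low and 1310 bases wider than all-high peaks. With exactly 2 such sites the medians were 5768 bases in boundary peaks (interval 5486 to 6072), 4414 bases in all-low and 4628 bases in all-high peaks. Matched instead on the span between the outermost such sites, the differences shrank to 473.5 and 194.5 bases. Single-class peaks whose sites lay as far apart were thus nearly as wide.

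The listed peaks can join several narrower intervals. A second deposited table gives 99978 intervals, each overlapping 1 listed peak, and 2347 boundary peaks (44.1%) overlapped at least 2 of them. In the 2975 boundary peaks with 1 interval, a low and a high site could hardly fall in different ones. Among the 2347 with at least 2 intervals, 1561 (66.5%, interval 64.6 to 68.4%) held a low and a high site within 1 of them. In the others low and high sites met in 1 peak only as it was listed. Counted by narrower interval, the median width of those with a boundary was 4160 bases, 26.8% held a listed start site and 25.4% overlapped a Pol II PS5 peak. C positions counted by the authors in these intervals had a median density of 34.8 per 1000 bases in boundary peaks, against 50.2 in all-low and 24.8 in all-high peaks. Whether that count takes every C or only those of CG sites was not checked here.

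The H3K4me1 score, the authors' own value, lies on 2 scales in 1 column. On the higher scale, which starts at 42, were 5299 of the 5322 boundary peaks (99.6%), 99.2% of all-low peaks, 90.5% of all-high peaks, 87.9% of the peaks with shared sites and 45.8% of the list. Within that scale the median score was 64 in boundary peaks (25th to 75th percentile 57 to 76), 65 in all-low and 60 in all-high peaks and 57.5 over the list. Scores of boundary peaks were thus close to those of all-low peaks. Low and high sites took like positions within the peak: the median distance from the centre, as a percent of that from centre to edge, was 42.7% for low, 42.7% for remaining and 44.3% for high sites.

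RRBS coverage was denser around low sites. Within 100 bases, low sites had a mean of 5.75 other RRBS positions and high sites 3.47 (medians 4 and 3). The mean was larger around low sites in 2889 boundary peaks (54.3%) and around high sites in 1972 (37.1%), with a median difference of 0.6 positions (interval 0.5 to 0.75). In boundary peaks with equal numbers of low and high sites the median difference was 0. Its part in the results on position was not tested.

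Pol II PS5 peaks overlapped boundary peaks more often than all-high peaks, and lay more often nearer to low than to high sites. Of the boundary peaks 2253 (42.3%, interval 41.0 to 43.7%) overlapped at least 1 Pol II PS5 peak by at least 1 base, against 35.4% of all-low, 18.4% of all-high and 9.77% of all listed peaks. They held 3032 Pol II PS5 peaks, with 1 in 1682 boundary peaks, 2 in 428 and at most 9. Matched on the total number of low and high sites, the share was 16.6 points above all-high peaks, and it was 15.7 points above them when matched on span. Against all-low peaks the difference was 6.26 points when matched on the total number of sites and −0.988 points when matched on span. It was also below 0 by narrower interval (−1.56 points) and in boundary peaks with equal numbers of low and high sites (−2.14 points), so its direction depended on the comparison.

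Inside the boundary peaks the sites themselves differed. Of the low sites 1009 (6.49%, interval 6.10 to 6.88%) lay inside a Pol II PS5 peak, against 1.71% of remaining and 101 high sites (0.785%, 0.640 to 0.953%). These shares were near those of the single-class peaks, where 5.79% of the low sites of all-low peaks and 0.574% of the high sites of all-high peaks did. Within 1000 bases of a listed start site the shares in boundary peaks were 10.7% of low, 3.21% of remaining and 0.877% of high sites. Beyond 1000 bases they were 4.74%, 1.54% and 0.777%. The order of the 3 classes was the same near and far from gene starts. The intervals count each site singly, though several sites can lie in 1 Pol II PS5 peak, so they are no test of the difference.

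Counted by Pol II PS5 peak, 1981 of 3024 (65.5%, interval 63.8 to 67.2%) were nearer to a low than to a high site, and 8 were at equal distance. Their median distance was 810.5 bases to the nearest low and 1907 bases to the nearest high site. The share was 80.5% of the 1049 Pol II PS5 peaks within 1000 bases of a start site and 57.6% (55.4 to 59.8%) of the 1975 beyond. In boundary peaks with equal numbers of low and high sites it was 68.7% of 608. A low site but no high site lay inside 401 Pol II PS5 peaks, a high but no low site inside 53 and both inside 8. The share also moved with proximity. With the nearest low or high site within 500 bases the share was 82.4%, and beyond 500 bases it was 51.4% (48.9 to 53.8%), an interval that holds 50%.

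In the boundary peaks with 1 switch the peak can be cut into a low side, the stretch between the nearest low and high site, and a high side. Of 1925 Pol II PS5 centres, 1005 (52.2%, interval 49.9 to 54.5%) lay on the low side, which made up 36.4% of the length. On the stretch between lay 508 (26.4%) on 23.2% of the length, and on the high side 412 (21.4%, 19.6 to 23.3%) on 40.4% of the length. Per Mb these were 73.2 centres on the low side, 57.9 between and 27.1 on the high side. The stretch with no class of its own thus stood between the sides in density. These densities were not split by distance to start sites.

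**Figure D5:**
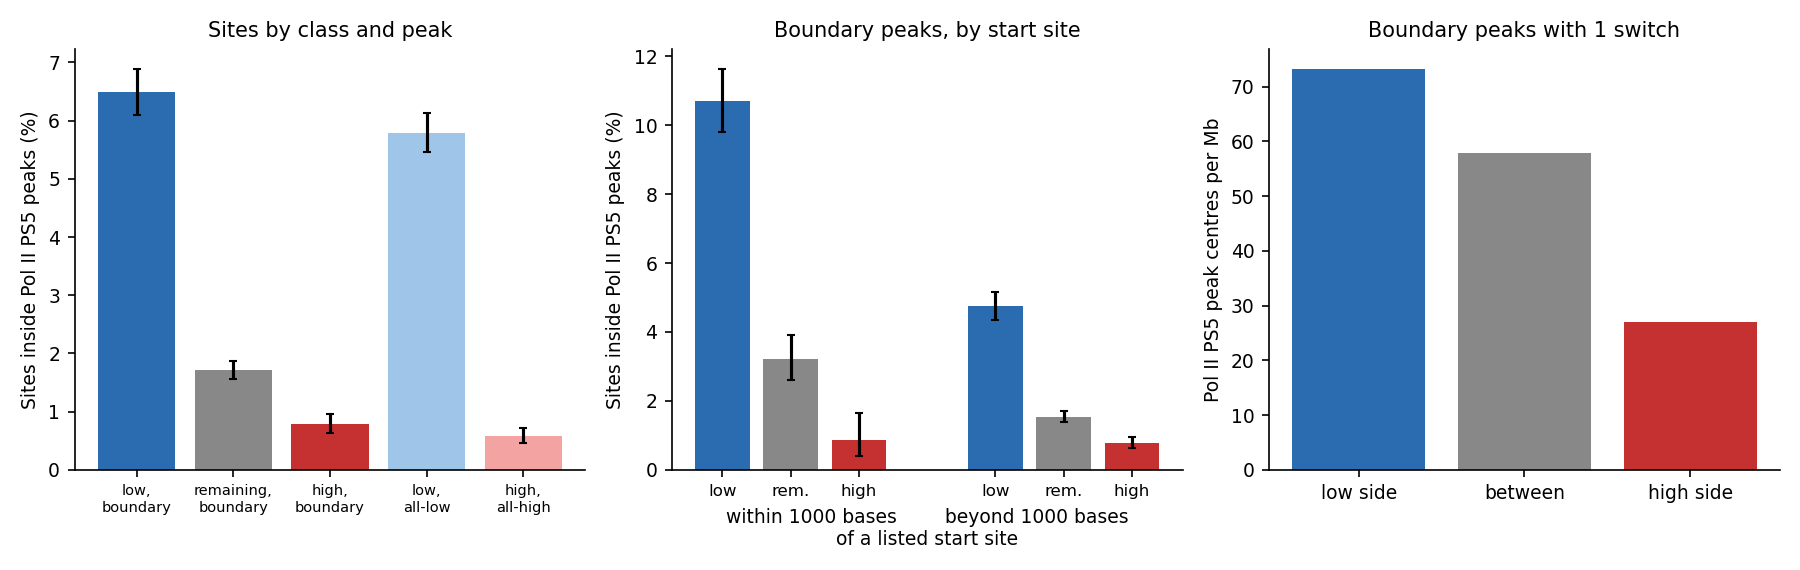
Left and middle, percent of CG sites inside Pol II PS5 peaks (y axis, 95% intervals) by site class in boundary peaks, beside low sites of all-low and high sites of all-high peaks, and split by distance to a listed start site; low sites are highest in each set (6.49% in all boundary peaks, 10.7% near and 4.74% away from start sites). Right, Pol II PS5 peak centres per Mb of the low side, the stretch between and the high side of boundary peaks with 1 switch (73.2, 57.9 and 27.1; no interval drawn).

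The boundary peaks with the highest-scoring Pol II PS5 peak, among those that held a listed start site, showed both arrangements. On scaffold_23, from 2035901 to 2044705, a Pol II PS5 peak with the authors' score of 39.21 held the start site of ENSCPOG00000024017 and at least 1 of the 4 low sites, and was 3986 bases from the nearest of the 2 high sites. On scaffold_407, from 5080 to 9675, the Pol II PS5 peak with a score of 28.85 held low sites and was 920 bases from the high site. In that peak the 13 low sites averaged 1.08% in ChIP-bisulfite and 0.308% in RRBS, and the single high site had 100% in ChIP-bisulfite and 90% in RRBS. That high site lay 26 bases downstream of the start site of ENSCPOG00000027215, inside a second and weaker Pol II PS5 peak with a score of 2.41. Here the high site, and not a low one, was next to the listed start. On scaffold_815, from 175 to 5880, the strongest Pol II PS5 peak, with a score of 21.06, held a low site. It was 1364 bases from the nearest high site. A weaker Pol II PS5 peak there, with a score of 5.62, held sites of both classes.

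The peak on scaffold_13 from 48344145 to 48360429 stood apart by its number of sites. It held 424 shared sites, 102 low and 117 high, with 11 to 263 RRBS reads at the low and 11 to 648 at the high sites, and switched class 4 times. Its strongest Pol II PS5 peak, with a score of 20.88, held a low site and the start site of ENSCPOG00000024729 and was 261 bases from the nearest high site. Weaker Pol II PS5 peaks in it, with scores of 2.25 and 2.57, held high sites and were 1074 and 626 bases from the nearest low site. Sites with over 200 RRBS reads were few in boundary peaks as a whole, with 33 low and 42 high sites. On scaffold_6, from 3010864 to 3019721, 1 of the 6 Pol II PS5 peaks, with a score of 15.11, held a high site and was 3764 bases from the nearest low site. The strongest of them, with a score of 20.69, was 772 bases from the nearest high and 2724 bases from the nearest low site. Of the 6 peaks 4 were nearer to a high and 2 nearer to a low site.

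The thresholds cut through a continuous scale. In 331 boundary peaks the lowest site was at 18 to 20%, just inside the limit, and 231 other peaks missed it with a lowest site at 21 to 23%. Their median widths were 7937 and 8070 bases, and 27.8% and 32.5% overlapped a Pol II PS5 peak. At the upper limit, 285 boundary peaks had a highest site at 80 to 82% and 192 other peaks one at 77 to 79%. Median widths were 6582 and 6566 bases, and Pol II PS5 overlap was 36.1% and 32.8%. Peaks on either side of each limit were thus of like width.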

How the data were processed

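The authors gave CG methylation levels in percent, rounded, with 3 animals pooled. The authors' H3K4me1 peaks, Pol II PS5 peaks and transcripts carry a score, and RRBS positions a deposited read count, listed from 10 reads upwards. C positions per interval are the authors' count. For RRBS the submitters' processing notes list BSMAP 2.74 and methylKit, for ChIP-bisulfite Bismark 0.12.5 and methylKit, and for ChIP-seq HOMER 4.6, MACS2 and Bowtie2 2.2.3, with SAMtools 1.1 throughout. The genome build is not given in the sources used here, and whether positions start at 0 or 1 was not stated.

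The 241970 site lines were reduced to 167387 positions, each with its nearest listed start site. Intervals are Clopper-Pearson for shares and order-statistic for medians, at 95%. For matched differences from all-low or all-high peaks, the half-widths of both sides were joined as the root of their summed squares. That approximation ignores the weighting, and it served only to sort the alternatives below. Scripts used Python 3.11.15, numpy 2.4.6, pandas 2.3.3 and scipy 1.17.1, and were tested on simulated data. Peaks named are, by rule, the 10 with at least 3 low and 3 high sites, 1 switch and the shortest distance, and the 5 with most switches, longest distance, highest-scoring Pol II PS5 peak (among those holding a listed start site) or greatest width. Those of the 13 peaks with sites 1 base apart were chosen after their values were seen. Members, lists and rules were chosen with earlier results of these data known. Alternatives in limits, depth, assay, strand merging, peak set, matching and windows were run. Gene lists and the marker check could not be run, since no table pairs the gene IDs with names.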

Additional observations from a re-analysis of the deposited data

How the results depend on the processing

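Animals could not be left out in turn, and no paired analysis was possible because the deposited files pool the 3 animals. Sparse CG coverage limits the distances, and ChIP-bisulfite depth per site was not used. Of 178 values under 15 other settings and 3 more chosen after seeing the data (at most 200 RRBS reads, the narrower intervals, and boundary peaks with equal numbers of low and high sites), 72 stayed within the 95% interval of the reported value (or, for the number of boundary peaks, within 1.5 times it), 103 moved beyond and 3 reversed. Every value run stayed within these limits when adjacent positions were merged (15 values), at most 200 RRBS reads were allowed (15), peaks of the high score scale were used (14) or Pol II PS5 centres defined overlap (3). So did the 1 value run with every listed transcript. Where an alternative moved a value, the cause was not tested.

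Boundary peaks numbered 3811 with limits 10 and 90, 6912 with 30 and 70, 7765 from RRBS alone and 4879 by narrower interval. They numbered 1653 with at least 2 sites of each class, 1575 with at least 20 RRBS reads and 14382 from ChIP-bisulfite alone. Median distances were 1290 bases with limits 10 and 90, 851 with limits 30 and 70, 831 with 2 sites of each class and 1702 with 20 reads. They were 735 bases from RRBS alone, 271 from ChIP-bisulfite alone, 874 by narrower interval and 1157 with equal numbers. One switch was seen in 77.5% with limits 10 and 90, 69.3% with 30 and 70, 44.95% with 2 sites of each class and 83.9% with 20 reads. From RRBS alone it was 66.2%, from ChIP-bisulfite alone 57.4%, by narrower interval 82.5% and with equal numbers 89.7%. The low site was nearer the start site in 57.3% with limits 10 and 90, 54.0% with 30 and 70, 52.7% from RRBS alone, 52.7% from ChIP-bisulfite alone and 58.1% by mean distance.

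Median widths were 9179 bases with limits 10 and 90, 8088 with 30 and 70, 13804 with 2 sites of each class and 11208 with 20 reads. From RRBS alone the width was 7770 bases, from ChIP-bisulfite alone 6288.5, by narrower interval 4160 and with equal numbers 6544. On the high score scale were 99.94% with 2 sites of each class, 99.87% with 20 reads, 99.12% from RRBS alone, 96.8% from ChIP-bisulfite alone and 99.02% with equal numbers. Listed start sites were inside 50.1% with limits 10 and 90, 43.0% with 30 and 70, 59.5% with 2 sites of each class and 52.4% with 20 reads. The share was 42.7% from RRBS alone, 31.2% from ChIP-bisulfite alone, 26.8% by narrower interval and 35.3% with equal numbers.

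Pol II PS5 overlap was 45.3% with limits 10 and 90, 39.4% with 30 and 70, 54.4% with 2 sites of each class and 48.1% with 20 reads. It was 38.4% from RRBS alone, 29.0% from ChIP-bisulfite alone, 25.6% for Pol II PS5 peaks scored at or above the median, 25.4% by narrower interval and 31.8% with equal numbers. Nearer to a low site were 62.0% of Pol II PS5 peaks with 2 sites of each class, 57.4% with 20 reads, 63.6% from RRBS alone and 63.4% from ChIP-bisulfite alone. The share was 72.1% for peaks scored at or above the median, 57.6% beyond 1000 bases of a start site, 77.5% by narrower interval and 68.75% with equal numbers.

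Remaining sites differed by −17.83 points in RRBS between near low and near high sites with limits 10 and 90, −12.41 with 30 and 70 and −22.0 with 20 reads. The difference was −9.5 points from RRBS alone, −12.33 from ChIP-bisulfite alone and −17.5 by narrower interval. The median excess of RRBS positions around low sites was 0.8 with limits 10 and 90, 0.786 with 2 sites of each class, 1.0 with 20 reads, 0.333 from RRBS alone, 0 from ChIP-bisulfite alone, 1.0 within 250 bases and 0 with equal numbers.

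Against all-low peaks, Pol II PS5 overlap differed by 17.2 points with 2 sites of each class, 4.25 from RRBS alone, 0.795 from ChIP-bisulfite alone and 0.623 for peaks scored at or above the median. It reversed to −0.988 points matched on span, −1.56 by narrower interval and −2.14 with equal numbers. Widths differed from those of all-low peaks by 4010 bases with limits 10 and 90, 3172 with 30 and 70, 8341 with 2 sites of each class, 5612 with 20 reads and 2964 from RRBS alone. This was 1572.5 bases from ChIP-bisulfite alone, 473.5 matched on span, 733 by narrower interval and 1955 with equal numbers. Against all-high peaks, Pol II PS5 overlap differed by 13.9 points with limits 30 and 70, 20.3 with 2 sites of each class, 18.7 with 20 reads, 14.8 from RRBS alone and 6.23 from ChIP-bisulfite alone. For peaks scored at or above the median it was 12.9 points, by narrower interval 12.4 and with equal numbers 13.3. The width difference from all-high peaks was 1380.5 bases with limits 10 and 90, 626 with 2 sites of each class, 3327.5 with 20 reads and 553 from ChIP-bisulfite alone. It was 194.5 bases matched on span, 61.5 by narrower interval and 1310 with equal numbers. Bins of site number with fewer than 10 all-high peaks were left out of both sides of these comparisons. They thus covered 3480 of 3811 boundary peaks with limits 10 and 90 and 1516 of 1575 with 20 reads. From ChIP-bisulfite alone they covered 12156 of 14382, and by narrower interval 4648 of 4879.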
